A study of Mus musculus with 21 samples.

Results

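The canonical histone genes are the clustered genes that encode the core histones H2A, H2B, H3 and H4 and the linker histone H1. They were taken here as every gene annotated as protein-coding whose symbol starts with Hist1h, Hist2h, Hist3h or Hist4h. That rule selected 67 of the 54532 genes in the deposited count tables: 6 H1, 18 H2A, 18 H2B, 12 H3 and 13 H4 genes. Of these, 54 lie on mouse chromosome 13, 10 on chromosome 3, 2 on chromosome 11 and 1 on chromosome 6. At least 1 read was counted for 58 of them, and 9 had no count in any library.

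Most canonical histone genes are transcribed during S phase, when newly replicated DNA has to be packed into nucleosomes. Their messages normally end just after a short RNA hairpin, the histone stem-loop, which is bound by the stem-loop binding protein (Slbp), and they carry no poly(A) tail. Some of these genes also give polyadenylated transcripts, which have been described in cells that leave the cycle and differentiate. Replacement histones such as H3.3 and H2A.Z are made from ordinary polyadenylated messages throughout the cycle.

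The study measured RNA from fibroblasts cultured with small molecules that turn them towards hepatocyte-like cells. RNA was enriched on poly-T beads and made into libraries with a kit that does not mark strand, so a library samples chiefly the polyadenylated part of the histone transcripts. The 21 libraries fall into 7 groups, all labelled wild type, and the labels give no strain.

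The 4 C6FAE-C6F(L) libraries came from mouse embryonic fibroblasts kept in C6FAE medium to day 4 and then in C6F(L) medium. The 3 C6FAE libraries came from fibroblasts in C6FAE medium alone. That medium holds the GSK3 inhibitor CHIR99021 at 20 µM, the TGF-β receptor inhibitor 616452 at 10 µM and Forskolin, which activates adenylate cyclase, at 50 µM. It also holds the retinoic acid receptor agonist AM580 at 0.05 µM, EPZ004777, which inhibits the histone H3 methyltransferase DOT1L, at 5 µM and bFGF at 50 ng/ml. The 3 C6F(L) libraries came from fibroblasts in a hepatocyte medium with 1 µM dexamethasone, 10 mM nicotinamide, 10 ng/ml FGF4, 20 ng/ml HGF and 20 ng/ml EGF. That medium held CHIR99021, 616452 and Forskolin at 20, 10 and 50 µM for 4 days, then at 3, 2 and 2 µM. For the 3 C6F5UE-C6F(L)V libraries, CH55, another retinoid, at 1 µM and UNC0638, which blocks the enzymes G9a and GLP, at 0.05 µM took the place of AM580 in the first medium, and 50 µg/ml vitamin C was added to the second. The 3 NSF-CiHeps libraries came from neonatal skin fibroblasts taken through that last protocol. The 2 pHeps libraries came from isolated hepatocytes cultured for 2 days, and the 3 MEF libraries from untreated fibroblasts. The MEF medium and the media of all 5 treated groups held 10% fetal bovine serum.

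Library totals lay between 9180939 and 12319883 counts, and between 26 and 53 of the 67 histone genes had a count in a library. Levels are given as CPM, the standard unit of counts relative to the library total, with library totals scaled by the TMM method over the 21 libraries. Collagen Col1a1 averaged 12490 CPM in MEF, and albumin (Alb) averaged 9438 CPM in C6F5UE-C6F(L)V and 17200 CPM in pHeps. The basal keratin Krt5 averaged 6770 CPM in C6FAE-C6F(L), against 27.9 CPM at most in any other group. The macrophage marker C1qa averaged 129 CPM in pHeps and 324 CPM in MEF, and had at most 0.18 CPM in any library of the other groups. The part of these other cells in the histone values was not tested. In bulk RNA, fewer cells of a type and less RNA per cell cannot be told apart. MEF and the C6FAE-C6F(L), C6FAE and C6F(L) groups share 1 count table, pHeps and C6F5UE-C6F(L)V share another, and NSF-CiHeps stand in a further one. In comparisons across tables, table and group cannot be told apart.

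The stem-loop is shown first because messages that end at it lack the poly(A) tail on which these libraries were selected. It was searched by the consensus of the histone stem-loop, a stem that opens with GG, closes with CC and pairs at every base, around a loop of mostly T, on the sense strand of the transcripts of GENCODE release M21 (GRCm38). It was found in 45 of 67 histone genes (67.2%), against 68 (0.152%) of 44777 protein-coding transcripts with an annotated 3′ UTR. The 68 include the transcripts of these histone genes. The search covered the annotated 3′ UTR, which 54 of the 67 histone genes have. The 4 forms shown differ in a stem pair or in the loop. Capitals mark the bases of the stem.
Form in 25 genes, Hist1h1c, Hist1h1e and Hist3h2ba among them: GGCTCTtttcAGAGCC
Form in 7 genes, Hist1h4h and Hist1h4m among them: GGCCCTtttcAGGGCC
Form in 6 genes, the testis H1 gene Hist1h1t among them: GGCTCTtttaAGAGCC
Form in 2 genes, Hist1h4i and Hist2h4: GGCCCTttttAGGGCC

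In Hist1h1c, which encodes the linker histone H1.2, the hairpin lies at chr13:23739512-23739527 on the plus strand, in the 3′ UTR, and the annotated transcript runs on for 840 bases after it. An AATAAA polyadenylation signal stands in the last 50 bases of that transcript. Annotated transcripts also ran on for 4884 bases in Hist1h1d, 1643 bases in Hist3h2a, 1153 bases in Hist1h1e and 330 bases in Hist1h4i. Over all 67 histone genes, those without a 3′ UTR included, 17 had AATAAA or ATTAAA in the last 50 bases of the 3′ UTR. Of all protein-coding transcripts with a 3′ UTR, 64.7% had either signal there. Transcripts with more than 100 bases after the hairpin belonged to 23 genes, whose median level was 0.836 CPM per kb of transcript as the mean of the 7 group means, with 105.9 as the highest. The 22 genes with 100 bases or fewer had a median of 0.305 CPM per kb and a highest value of 7.48. The 22 genes with no hairpin in their longest transcript had a median of 0.274 CPM per kb, with 131.9 as the highest. They include genes whose annotated 3′ UTR is absent or too short to hold a hairpin, so none could be found there. These are descriptions without a test. The annotated end sets which reads can be counted, so the length past the hairpin and the count are not independent measures.

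**Figure D1:**
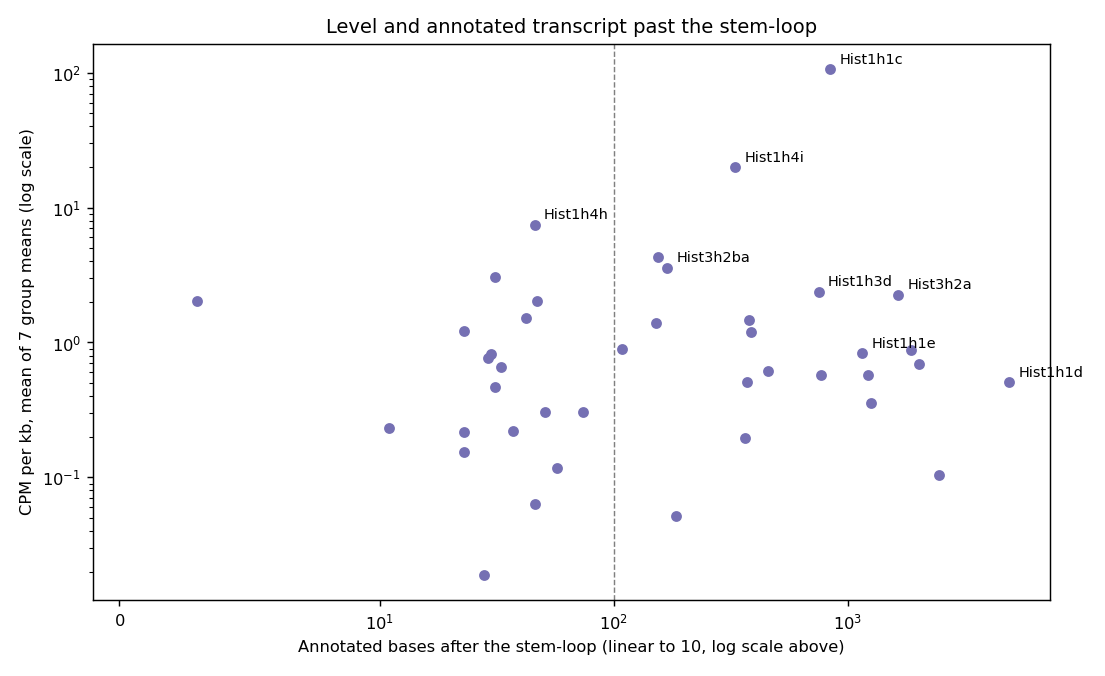
Level of each histone gene in CPM per kb (mean of 7 group means, log scale) against the annotated bases after its stem-loop, for the 41 genes with a stem-loop and a count. The dashed line stands at 100 bases. Hist1h1c is the highest at 105.9 CPM per kb with 840 bases past the hairpin, and genes on both sides of the line reach above 1 CPM per kb.

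Few histone genes made up most of the signal. Hist1h1c, Hist1h2bc and Hist1h2af were the highest by mean level, and together they held between 70.9% of the summed histone CPM in C6FAE and 85.3% in pHeps. Averaged over the 7 group means, 4 genes reached 10 CPM and 19 reached 1 CPM. Per length, Hist1h2af stood at 131.9, Hist1h1c at 105.9, Hist1h2bc at 83.2 and Hist1h4i at 19.95 CPM per kb. The place of Hist1h2af rests on 1 count table: it had 79.2 CPM per kb in C6F5UE-C6F(L)V and 842.8 CPM per kb in pHeps, and at most 0.50 CPM per kb in any other group. Hist1h1c alone gave 56.2% of the histone CPM in C6FAE-C6F(L), 49.8% in C6FAE and 60.7% in C6F(L). Its share was 35.9% for C6F5UE-C6F(L)V, 46.8% for NSF-CiHeps, 20.8% in pHeps and 70.4% in MEF, so that it was the smallest in pHeps and the largest in MEF.

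The summed level of the 67 genes was lowest in C6FAE and highest in pHeps. In C6FAE-C6F(L) it was 201.0, 220.2, 218.7 and 250.8 CPM. In C6FAE it was 48.8, 44.5 and 38.9 CPM. The 3 C6F(L) libraries had 313.7, 306.8 and 317.0 CPM. These groups did not overlap, and all lay below MEF, with 533.4, 536.1 and 521.2 CPM. C6F5UE-C6F(L)V libraries had 243.7, 307.3 and 364.3 CPM, and NSF-CiHeps 259.0, 347.3 and 320.1 CPM, so that these groups overlapped with each other and with C6F(L). The pHeps libraries had 918.5 and 935.9 CPM. C6FAE averaged 44.1 ± 4.99 CPM against 530.3 ± 7.93 CPM in MEF (SD, n = 3 each), a ratio of MEF to C6FAE of 12.03.

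Without the 3 highest genes the other 64 summed to 51.5 CPM in C6FAE-C6F(L), 12.8 CPM in C6FAE, 67.7 CPM in C6F(L), 49.6 CPM in C6F5UE-C6F(L)V, 50.2 CPM in NSF-CiHeps, 136.1 CPM in pHeps and 84.6 CPM in MEF. C6FAE was again lowest and pHeps highest. Every histone class had its lowest mean in C6FAE: H1 at 22.8, H2A at 2.57, H2B at 13.97, H3 at 1.03 and H4 at 3.67 CPM. Without Hist1h2af, whose counts lie almost wholly in 1 count table, pHeps averaged 590.9 CPM and MEF 530.1 CPM, a ratio of 1.11 in place of 1.75.

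**Figure D2:**
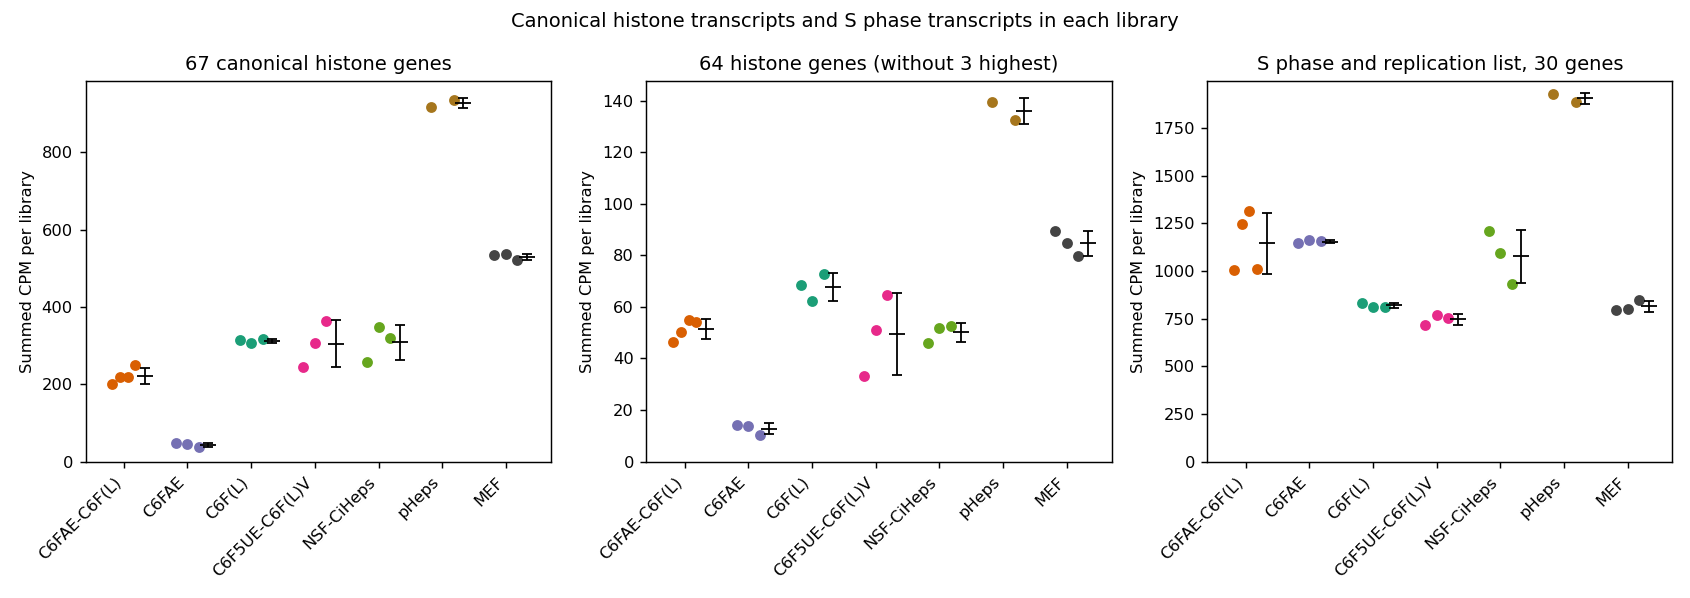
Summed CPM per library of the 67 canonical histone genes, of the 64 genes left without Hist1h1c, Hist1h2bc and Hist1h2af, and of the 30 genes of the S phase list, in the 7 groups (points, libraries; bars, mean and SD). C6FAE has the lowest histone sums, 38.9 to 48.8 CPM, and S phase sums near 1155 CPM, above the MEF mean of 816.3 CPM.

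The order of the groups by histone level was set against transcripts of proliferating cells. The S phase list holds 30 genes of DNA replication, such as Pcna, the sliding clamp of DNA polymerase, Mcm5, a subunit of the replicative helicase, and Rrm2, a subunit of ribonucleotide reductase. Its mean log2(CPM + 1) was 4.63 in C6FAE-C6F(L), 4.84 in C6FAE and 4.14 in C6F(L). It was 3.72 for C6F5UE-C6F(L)V, 4.603 for NSF-CiHeps, 5.54 in pHeps and 4.30 in MEF. Of the 21 pairs of groups, 10 stood in the same order by summed histone level and by this list, and 11 by summed histone level and the list of G2 and mitosis genes. pHeps stood highest in all these measures, and C6FAE was lowest in histone level but came next after pHeps in both proliferation lists.

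Single genes varied in how their 7 group means moved with the S phase list. Among the 19 genes that averaged 1 CPM or more, r was positive for 11, and as a description over 7 points it was highest for Hist1h3g (0.774), Hist2h2be (0.475) and Hist1h4i (0.441). The lowest values belonged to Hist1h2ac (-0.41), Hist2h3c2 (-0.225) and Hist1h1d (-0.166). For Hist1h1c, the most abundant gene, r was -0.117, and for Hist1h2bc it was 0.118. Hist1h3g, an H3 gene with 47 bases after its hairpin, had 6.99 and 4.35 CPM in the pHeps libraries and at most 0.97 CPM in any other library.

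Fibroblasts in C6FAE medium were set against untreated fibroblasts by comparing C6FAE with MEF. No time in culture is at hand for either group, so medium and time in culture cannot be told apart. Genes were tested in 1 fit over the 13 libraries of that count table with edgeR's quasi-likelihood test, and a gene was called at a Benjamini-Hochberg adjusted p below 0.05 and a log2 fold change of at least 1. Of 22 histone genes that passed the filter on low counts, 19 were lower and 1 was higher in C6FAE, where 14.7% of all 16535 genes tested were called lower and 15.6% higher. The median log2 fold change of the 22 was -3.11, against 0.02 for all genes. A gene could pass the filter through the group where it was high, so these counts describe the genes measured and not all 67. Over all 67 genes, 50 had a lower mean in C6FAE, 4 a higher one and 13 no count in either group.

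Markers of other cell types moved with this comparison. Macrophage markers were lower for 10 of 10, with a summed level of 11.55, 12.57 and 13.38 CPM in C6FAE, against 5188, 4508 and 4198 CPM in MEF. Of 12 fibroblast markers 8 were lower and 2 higher, and their sum averaged 11560 CPM in C6FAE and 38500 CPM in MEF. Keratinocyte markers were higher for 5 of 10, with a summed mean of 76.1 CPM in C6FAE and 3.12 CPM in MEF. Their part in the histone values was not tested.

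Among the linker histones, Hist1h1c had 25.5, 21.7 and 18.6 CPM in C6FAE, against 368, 378 and 374 CPM in MEF. Every C6FAE library lay far below every MEF library, and Hist1h1c fell by 4.11 ± 0.13 on the log2 scale (SE, edgeR adjusted p = 2.39e-09). Hist1h1d, which encodes H1.3, had 0.74, 0.26 and 0.17 CPM in C6FAE, against 13.6, 12.5 and 11.3 CPM in MEF, and fell by 4.98 ± 0.69 (edgeR adjusted p = 8.03e-05). Hist1h1e, encoding H1.4, fell by 3.44 ± 0.35 (edgeR adjusted p = 7.57e-06), with 9 counts in C6FAE and 98 in MEF. Hist1h1b, encoding H1.5, fell by 2.78 ± 0.87 with 6 counts against 42 (edgeR adjusted p = 0.017). Hist1h1a had 3 counts in C6FAE and 22 in MEF, and the testis gene Hist1h1t had 0 in C6FAE and 5 in MEF; neither passed the filter.

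The tested core histone genes that were called fell as well, apart from Hist3h2ba. Hist1h2bc, an H2B gene with a second exon and no hairpin in its annotated transcript, had 9.18, 8.91 and 9.89 CPM in C6FAE, against 75.7, 73.7 and 67.5 CPM in MEF. It fell by 2.97 ± 0.14 (SE, edgeR adjusted p = 2.67e-08), and the libraries of the groups stood far apart. Hist1h4i, the highest H4 gene, fell to 2.62, 2.46 and 2.13 CPM in C6FAE, against 16.1, 12.5 and 11.9 CPM in MEF, with a log2 change of -2.50 ± 0.18 (edgeR adjusted p = 5.53e-07). Hist1h3d, an H3 gene, had 0 counts in all C6FAE libraries and 143 in MEF, which is at least 46.3-fold lower against a floor of 3 counts over the group. Hist1h4m had 0 counts in C6FAE and 60 in MEF, at least 19.4-fold lower by the same floor. Hist2h3c2 had 2 counts in C6FAE and 178 in MEF, a ratio of MEF to C6FAE of 86.4 with an exact 95% interval of 23.6 to 719 that covers counting error only. Hist1h4n, with 3 counts against 120, had a ratio of MEF to C6FAE of 38.8 (12.98 to 191). Of the 50-base stretches of the Hist1h4m transcript 89.8% also occur in transcripts of other genes, and of Hist1h4n 85.6%. Counts of Hist1h4m and Hist1h4n are therefore uncertain in every group. Hist2h2be and Hist3h2a were called with smaller changes, -1.91 ± 0.33 and -1.42 ± 0.28. The exons of Hist3h2a overlap those of Trim17 on the same strand and of Gm44313 on the other. In every comparison, reads of the shared part cannot be told apart.

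Hist3h2ba was the called gene that rose. This H2B gene lies in the small histone cluster on chromosome 11, at chr11:58948920-58949533. It had 12, 28 and 15 counts in the C6FAE libraries, against 2, 0 and 0 in MEF, a ratio of 28.3 (exact 95% interval 7.47 to 240). Every other group also lay above MEF for this gene: its mean was 0.58 CPM in C6FAE-C6F(L), 1.55 CPM in C6FAE and 1.20 CPM in C6F(L), against 0.059 CPM in MEF. The means were higher still at 4.67 CPM in C6F5UE-C6F(L)V, 2.72 CPM in NSF-CiHeps and 4.65 CPM in pHeps. It was called higher in each comparison with MEF.

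Proliferation genes did not fall with the histone genes in C6FAE. In the S phase list 3 of 30 genes were called higher and none lower, and in the G2 and mitosis list 5 of 25 were higher and none lower by edgeR. At an unadjusted edgeR p below 0.05, 19 S phase genes and 18 G2 and mitosis genes were higher, and 0 of either list lower. Top2a, the topoisomerase of dividing cells, had 223, 233 and 230 CPM in C6FAE, against 106, 102 and 107 CPM in MEF, and rose by 1.11 ± 0.16 (SE, edgeR adjusted p = 9.43e-05). Mki67, a marker of cycling cells, averaged 85.6 ± 2.72 CPM in C6FAE and 98.8 ± 7.20 CPM in MEF (SD, n = 3 each), and Rrm2 averaged 55.0 ± 1.99 CPM in C6FAE and 54.8 ± 8.66 CPM in MEF. Pcna averaged 73.4 CPM in C6FAE and 65.0 CPM in MEF. Neither Mki67, Rrm2 nor Pcna passed the threshold.

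Of the 20 genes for transcription and 3′ end processing of histone messages, 2 were higher in C6FAE and none was lower by edgeR, with 11 higher and 2 lower at an unadjusted p below 0.05. Lsm11, a subunit of the U7 snRNP that cuts histone pre-mRNA, had 27.9, 33.6 and 27.4 CPM in C6FAE, against 7.74, 10.9 and 8.94 CPM in MEF, and rose by 1.67 ± 0.17 (SE, edgeR adjusted p = 6.77e-06). The other was Zfp473, the mouse gene of a zinc finger protein that in human cells binds the U7 snRNP complex, at a log2 change of 1.56. Slbp averaged 34.3 CPM in C6FAE and 29.4 CPM in MEF, and neither Slbp nor Npat, the coactivator of histone gene transcription, was called. Npat averaged 36.1 CPM in C6FAE and 31.1 CPM in MEF. Casp8ap2, a further factor of histone gene expression, averaged 26.9 CPM in C6FAE and 26.0 CPM in MEF. Among 15 histone chaperones 3 were higher and none lower by edgeR, with 9 higher and 0 lower at an unadjusted p below 0.05. Asf1b, a chaperone of H3 and H4, averaged 15.7 CPM in C6FAE and 11.7 CPM in MEF, and was not called. Chaf1b, a subunit of the chromatin assembly factor, averaged 15.3 CPM in C6FAE and 11.6 CPM in MEF and was not called.

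Replacement and variant histones gave 1 higher and no lower call in 11 genes by edgeR, with 3 higher and 3 lower at an unadjusted p below 0.05. H3f3b, 1 of the 2 genes for H3.3, averaged 363.0 CPM in C6FAE and 556.5 CPM in MEF, a change of -0.64 ± 0.10 that stayed under the fold threshold (edgeR adjusted p = 0.000221). H3f3a, the other, averaged 152.9 CPM in C6FAE and 143.0 CPM in MEF. H1f0, the replacement linker histone, averaged 188.0 CPM in C6FAE and 235.4 CPM in MEF. H2afz, encoding H2A.Z, averaged 147.2 CPM in C6FAE and 112.1 CPM in MEF. H2afx, encoding H2A.X, averaged 38.8 CPM in C6FAE and 42.2 CPM in MEF, and H2afj, encoding H2A.J, 72.9 CPM in C6FAE and 57.1 CPM in MEF. The summed level of these 11 genes was 1308 CPM in C6FAE and 1314 CPM in MEF, whereas that of the canonical genes differed 12.03-fold. Behind these near-equal sums single genes moved both ways. H2afy averaged 225.4 CPM in C6FAE and 69.75 CPM in MEF, whereas H3f3b was lower in C6FAE.

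**Figure D3:**
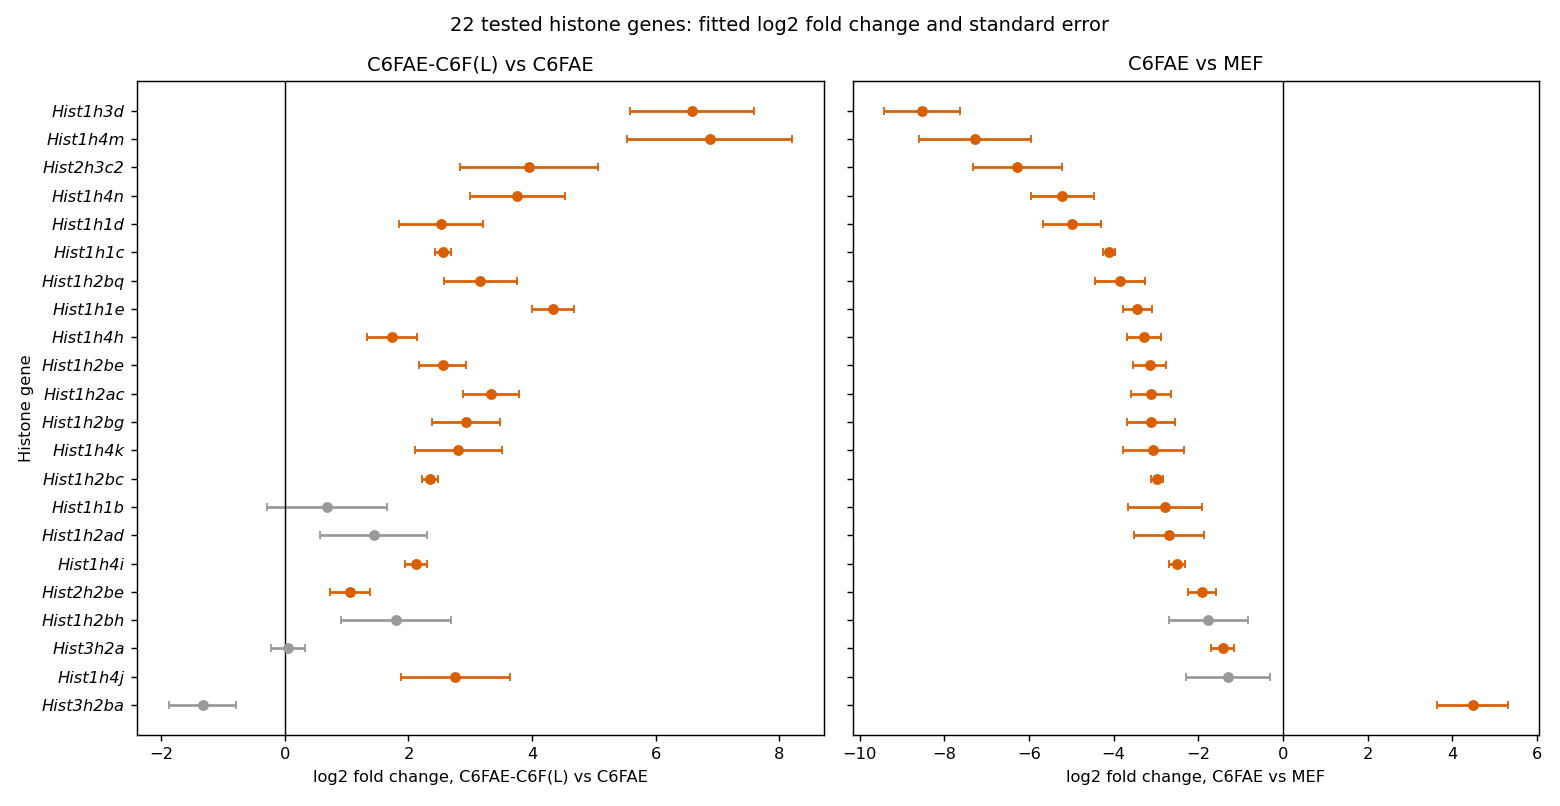
Fitted log2 fold change with its standard error for the 22 histone genes tested in C6FAE-C6F(L) against C6FAE and in C6FAE against MEF; orange points are called. The comparisons share the C6FAE libraries. Points of Hist1h3d and Hist1h4m rest on 0 counts in C6FAE and depend on the fit's prior count. In C6FAE against MEF 19 called genes lie to the left and 1 to the right. In C6FAE-C6F(L) against C6FAE all 17 called genes lie to the right.

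In fibroblasts in C6F(L) medium alone the summed histone level averaged 312.5 CPM, against 530.3 CPM in MEF, and the libraries did not overlap. By single genes, 2 of 22 tested genes were called lower and 1 higher in C6F(L), with 12.4% of all genes called lower and 10.6% higher, so the histone shares were near or under those of all genes. The median log2 fold change was -0.33, and over all 67 genes 36 had a lower and 18 a higher mean. The lower genes were Hist1h1d (-1.56 ± 0.54, edgeR adjusted p = 0.035) and Hist1h1e (-1.01 ± 0.29, edgeR adjusted p = 0.0137). Hist1h1d lost its call when any 1 of the 6 libraries was left out, and Hist1h1e without MEF replicate 2, MEF replicate 3, C6F(L) replicate 1 or C6F(L) replicate 3. The count of lower genes in these refits lay between 0 and 1; without C6F(L) replicate 3 the 1 lower gene was Hist1h4m. Hist1h1c had 184, 190 and 194 CPM in C6F(L), against 368, 378 and 374 CPM in MEF, a change of -0.98 ± 0.12 just under the fold threshold (edgeR adjusted p = 4.72e-05). With RLE scaling, 4 genes were called lower. Without MEF replicate 3 or C6F(L) replicate 2, 2 genes were called higher. Hist3h2ba, the higher gene, had 38 counts in C6F(L) against 2 in MEF, a ratio of 20.6 (exact 95% interval 5.31 to 176). Mki67 fell by 1.16 ± 0.14 (edgeR adjusted p = 3.71e-05), and in the S phase list 1 of 30 genes was lower and none higher by edgeR, with 8 lower and 5 higher at an unadjusted p below 0.05. Macrophage markers were lower in C6F(L) for 10 of 10, keratinocyte markers higher for 10 of 10 and hepatocyte markers higher for 5 of 13, and of 12 fibroblast markers 3 were lower and 2 higher. The part of these markers' cells in the histone values was not tested.

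Cells that passed from C6FAE into C6F(L) medium were compared with cells in C6FAE alone. The groups may also differ in time in culture, which cannot be told apart from the medium. Of the 22 histone genes, 17 were higher in C6FAE-C6F(L) and none was lower, where 16.1% of all genes were called higher and 17.6% lower. With DESeq2, 1 gene was called lower. Without C6FAE-C6F(L) replicate 1, or at an unadjusted edgeR p below 0.05, 1 was lower. The median log2 fold change was 2.55 for the histone genes and 0.03 for all genes. Here too a gene could pass the filter through the group where it was high. Over all 67 genes, 47 had a higher mean in C6FAE-C6F(L), 7 a lower one and 13 no count in either group. Fitted on the libraries of these groups alone, 14 genes passed the filter and 11 were higher.

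Hist1h1c had 118, 117, 119 and 146 CPM in C6FAE-C6F(L), against 25.5, 21.7 and 18.6 CPM in C6FAE, and rose by 2.56 ± 0.12 (SE, edgeR adjusted p = 1.87e-08). Its level did not reach that of MEF, where no library was under 368 CPM. Hist1h2bc had 36.4, 52.8, 44.3 and 50.8 CPM, against 9.18, 8.91 and 9.89 CPM in C6FAE, and rose by 2.35 ± 0.13 (edgeR adjusted p = 5.96e-08). Hist1h1e had 5.25, 4.57, 6.06 and 4.68 CPM in C6FAE-C6F(L), against 0.33, 0.17 and 0.26 CPM in C6FAE, and rose by 4.34 ± 0.34 (edgeR adjusted p = 6.04e-07). These Hist1h1e levels lay above every library of every other group, including MEF at 2.02, 3.19 and 3.21 CPM. The exons of Hist1h1e overlap those of Hist1h2be on the same strand, and reads of the shared part cannot be told apart. Hist1h2be rose by 2.55 ± 0.39 (edgeR adjusted p = 0.000127). Hist1h2ac, an H2A gene, had 3.24, 4.57, 2.61 and 2.04 CPM, against 0.49, 0.26 and 0.17 CPM in C6FAE, and rose by 3.34 ± 0.45 (edgeR adjusted p = 5.35e-05). Hist1h3d had 46 counts in C6FAE-C6F(L) and 0 in C6FAE, at least 12.2-fold higher. Hist1h4m, whose sequence is largely shared with other genes, had 56 counts in C6FAE-C6F(L) and 0 in C6FAE, at least 14.8-fold higher. Hist2h2be, at 1.05 ± 0.32, dropped out of the calls in 5 refits, among them those without C6FAE replicate 1, C6FAE replicate 3 or C6FAE-C6F(L) replicate 1. Hist3h2a, at 0.05 ± 0.27, and Hist3h2ba, at -1.33 ± 0.55, were not called.

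Proliferation lists did not move with the histone genes here either. In the S phase list 1 gene was higher, Rrm2 at 1.29 ± 0.11, and 3 were lower, and in the G2 and mitosis list 1 of 25 genes was lower. At an unadjusted edgeR p below 0.05, 9 S phase genes were lower and 4 higher. By the same measure 12 G2 and mitosis genes were lower and 0 higher. Lsm11 fell by 1.31 ± 0.15 (edgeR adjusted p = 1.51e-05), with 11.6 ± 1.65 CPM in C6FAE-C6F(L) and 29.6 ± 3.48 CPM in C6FAE (SD, n = 4 and 3). Keratinocyte markers moved with this comparison: 10 of 10 were called higher, and their summed level was 11060 to 20010 CPM in C6FAE-C6F(L), against 69.5 to 84.5 CPM in C6FAE. Hepatocyte markers were higher for 13 of 13 tested, and fibroblast markers were lower for 10 of 12. Their part in the histone values was not tested.

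The promoters of Hist1h1c, Hist1h1d and Hist1h1e are shown, because these 3 H1 genes were called lower in C6FAE against MEF and higher in C6FAE-C6F(L) against C6FAE. Hist1h1d rose by 2.52 ± 0.68 in the second of these (edgeR adjusted p = 0.00705). Each runs from 250 bases before to 50 after the start, in the RefSeq table for GRCm38.p6. For Hist1h1d the gene as counted starts earlier, at chr13:23553262. Its printed promoter therefore lies inside the transcript whose reads were counted. Capitals mark 3 motifs searched on both strands: the H1 box AAACACA, the CCAAT box and the TATA box as TATAAA. None of these motifs overlap.
Hist1h1c promoter, chr13:23738557-23738856, plus strand: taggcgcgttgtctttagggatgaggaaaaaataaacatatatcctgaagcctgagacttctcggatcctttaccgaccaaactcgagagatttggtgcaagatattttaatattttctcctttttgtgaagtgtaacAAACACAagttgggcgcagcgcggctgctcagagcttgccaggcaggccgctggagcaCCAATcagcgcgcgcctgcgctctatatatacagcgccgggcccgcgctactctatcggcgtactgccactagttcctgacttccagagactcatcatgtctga
Hist1h1d promoter, chr13:23554782-23555081, plus strand: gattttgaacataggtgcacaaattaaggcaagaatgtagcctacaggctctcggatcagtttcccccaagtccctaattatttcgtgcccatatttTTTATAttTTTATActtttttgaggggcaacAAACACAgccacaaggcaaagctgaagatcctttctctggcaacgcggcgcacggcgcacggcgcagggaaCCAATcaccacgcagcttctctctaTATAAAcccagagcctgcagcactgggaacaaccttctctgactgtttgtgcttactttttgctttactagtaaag
Hist1h1e promoter, chr13:23622509-23622808, minus strand: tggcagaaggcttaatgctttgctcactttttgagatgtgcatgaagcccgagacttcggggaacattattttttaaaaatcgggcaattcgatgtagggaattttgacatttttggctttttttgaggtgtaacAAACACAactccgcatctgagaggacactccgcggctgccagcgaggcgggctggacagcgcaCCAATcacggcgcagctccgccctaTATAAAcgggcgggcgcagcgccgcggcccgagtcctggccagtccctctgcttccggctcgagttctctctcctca

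The H1 box stood in 5 of 6 H1 promoters and in 9 of the 62 histone promoters matched, against 7.18% of 32851 promoters in the table. CCAAT stood in 53 of 62, against 37.4%, and TATAAA in 35 of 62, against 13.6%. By class, CCAAT stood in every matched H1, H2A, H2B and H3 promoter but in only 3 of 12 H4 promoters. The octamer ATTTGCAT was found in 7 of 18 H2A and 6 of 16 H2B promoters and in no H1, H3 or H4 promoter, against 1.74% of all. No promoter in the table was matched for Hist1h2bc.

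**Figure D4:**
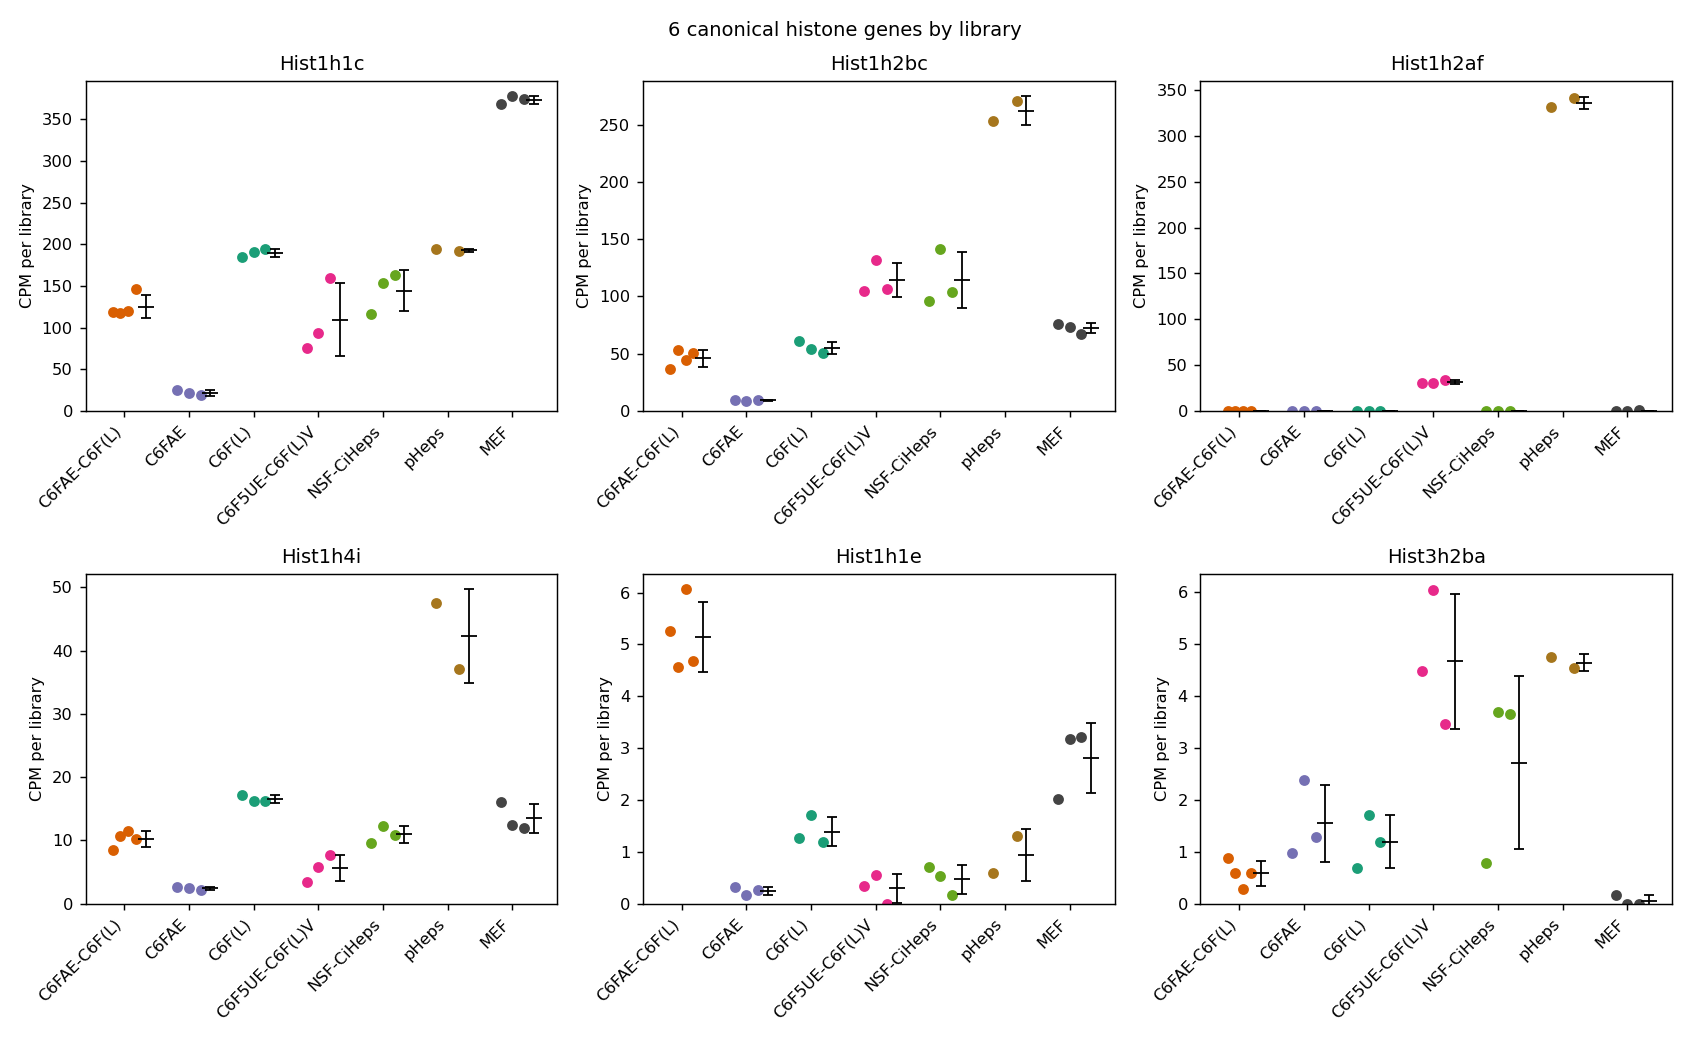
CPM per library of 6 histone genes in the 7 groups (points, libraries; bars, mean and SD). Hist1h1c is highest in MEF and Hist1h2bc in pHeps, Hist1h2af has counts chiefly in pHeps and C6F5UE-C6F(L)V, Hist1h1e is highest in C6FAE-C6F(L), and Hist3h2ba is lowest in MEF.

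Set against fibroblasts without treatment, C6FAE-C6F(L) had 8 of 22 histone genes lower and 1 higher, with 19.3% of all genes called lower and 18.2% higher. The median log2 fold change was -0.66. Hist1h1c fell by 1.55 ± 0.11 (SE, edgeR adjusted p = 2.64e-07) and Hist1h1d by 2.45 ± 0.51 (edgeR adjusted p = 0.00123). Hist1h1b, Hist3h2a, Hist1h3d, Hist2h3c2, Hist1h4h and Hist1h4n were also lower, by between 1.37 and 2.32. Hist1h1e, at 0.90 ± 0.25, stayed under the fold threshold. Hist3h2ba was the higher gene, with 26 counts in C6FAE-C6F(L) against 2 in MEF, a ratio of 10.6 (exact 95% interval 2.66 to 92.4). Without MEF replicate 1 or C6FAE-C6F(L) replicate 4, 2 genes were higher. In the S phase list 3 genes were higher and 1 lower in C6FAE-C6F(L), with 19 higher and 4 lower at an unadjusted edgeR p below 0.05. Keratinocyte markers were higher for 10 of 10 and hepatocyte markers for 13 of 13 tested, and lower calls covered 12 of 12 fibroblast and 9 of 10 macrophage markers. Their part in the histone values was not tested.

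The protocols that end in the same C6F(L) medium, with and without prior C6FAE, differed in 6 of 22 histone genes. In C6FAE-C6F(L) against C6F(L), 2 genes were higher and 4 lower, with 15.5% of all genes called higher and 16.5% lower. The histone shares were thus near or under those of all genes. Hist1h1e rose by 1.91 ± 0.27 (SE, edgeR adjusted p = 9.47e-05), and the libraries did not overlap. Hist1h4j, at 2.09 ± 0.83 (edgeR adjusted p = 0.049), lost its call in 7 of the refits, 6 of them without a single library. Hist3h2a fell by 1.69 ± 0.25 (edgeR adjusted p = 0.000132), Hist1h3d by 1.67 ± 0.43, Hist1h4h by 1.53 ± 0.32 and Hist1h2ad by 1.69 ± 0.65. Without C6FAE-C6F(L) replicate 4 the number of lower genes was 7. Hist1h1c, at 118, 117, 119 and 146 CPM in C6FAE-C6F(L) and 184, 190 and 194 CPM in C6F(L), did not overlap and was under the fold threshold. In the S phase list 9 of 30 genes were higher and 1 lower, with Mcm5 up by 1.33 ± 0.17. Here too 10 of 10 keratinocyte and 11 of 13 hepatocyte markers were higher and 12 of 12 fibroblast markers lower, and their part in the histone values was not tested.

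Cells made by the C6F5UE-C6F(L)V protocol were set against isolated hepatocytes, in the same count table. Of 26 histone genes tested, 12 were lower in C6F5UE-C6F(L)V and none was higher by edgeR, with 14.7% of all 15531 genes called lower and 18.4% higher. With no filter on low counts, 1 of 56 was higher. The median log2 fold change was -1.27, against 0.01 for all genes. A gene could pass the filter through pHeps alone, so these counts describe the genes measured. Over all 67 genes, 50 had a lower mean in C6F5UE-C6F(L)V, 6 a higher one and 11 no count in either group. Without single libraries the number of lower genes lay between 8 and 12. Hist1h2bc had 105, 132 and 106 CPM in C6F5UE-C6F(L)V, against 253 and 271 CPM in pHeps, and fell by 1.20 ± 0.11 (SE, edgeR adjusted p = 1.63e-06). Hist1h4i had 3.49, 5.78 and 7.66 CPM, against 47.6 and 37.0 CPM in pHeps, and fell by 2.92 ± 0.26 (edgeR adjusted p = 8.08e-07). Hist1h3g had 0, 0 and 5 counts, against 72 and 47 in pHeps, a change of -5.07 ± 0.89 (edgeR adjusted p = 0.000346). Hist1h4f had 2 counts against 30, a ratio of pHeps to C6F5UE-C6F(L)V of 21.04 (exact 95% interval 5.34 to 182). Hist1h1c varied among the C6F5UE-C6F(L)V libraries, at 75.2, 94.1 and 159 CPM, against 194 and 191 CPM in pHeps, and at -0.81 ± 0.22 was not called. Hist3h2ba, at 0.01 ± 0.38, was not called.

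Hist1h2af, an H2A gene, had 366, 326 and 334 counts in C6F5UE-C6F(L)V and 3416 and 3681 in pHeps, and was lower in C6F5UE-C6F(L)V by a log2 change of -3.41 ± 0.10 (SE, edgeR adjusted p = 4.9e-11). In the 16 libraries of the other count tables it had between 0 and 6 counts. Of its transcript's 50-base stretches, 94.0% also occur in transcripts of other genes, its annotated transcript holds 1 base of 3′ UTR, and it overlaps the gene Gm44297 on the other strand. How the authors assigned reads that fit several genes is not given in the sources used here. Levels of Hist1h2af are therefore uncertain in every count table, that table included. Sequence is shared widely in this family: 34 of 67 genes have at least 50% of their 50-base stretches in other genes' transcripts, 44 encode a protein identical to another member's and 24 overlap exons of another gene. Of the 9 genes without counts, 7 share over 50% of these stretches, and 5 of them, Hist2h2aa1, Hist2h2aa2, Hist2h2bb, Hist2h3b and Hist2h3c1, share all.

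Proliferation transcripts were far lower in C6F5UE-C6F(L)V than in pHeps. In the S phase list 27 of 30 genes were lower and in the G2 and mitosis list 25 of 25, with median log2 fold changes of -2.05 and -3.44. Mki67 averaged 5.74 CPM in C6F5UE-C6F(L)V and 58.8 CPM in pHeps, and the mitotic cyclin Ccnb1 averaged 8.40 CPM in C6F5UE-C6F(L)V and 158.0 CPM in pHeps. Slbp fell by 1.12 ± 0.13 (edgeR adjusted p = 1.29e-05). Macrophage markers were lower for 9 of 9 tested, with a summed level of 18.8 to 22.4 CPM in C6F5UE-C6F(L)V, against 1196 and 938 CPM in pHeps; their part in the result was not tested.

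The remaining comparisons lie across count tables. In C6F5UE-C6F(L)V against MEF, 11 of 34 histone genes were lower and 5 higher, with 26.4% of all 18605 genes called lower and 25.7% higher. In NSF-CiHeps against MEF, 10 of 34 were lower and 3 higher, with 22.1% and 17.1% in all genes. All 4 tested H1 genes were lower in both. Hist1h1c had 75.2, 94.1 and 159 CPM in C6F5UE-C6F(L)V and 117, 153 and 163 CPM in NSF-CiHeps, against 368, 378 and 374 CPM in MEF. It fell by 1.75 ± 0.20 in C6F5UE-C6F(L)V (SE, edgeR adjusted p = 5.14e-07) and by 1.39 ± 0.20 in NSF-CiHeps (edgeR adjusted p = 1.07e-05). Hist1h2bc was not called, at 0.69 ± 0.15 and 0.64 ± 0.15, although every library of both groups lay above the MEF libraries. Hist3h2ba had 153 counts in C6F5UE-C6F(L)V and 98 in NSF-CiHeps, against 2 in MEF. Hist4h4, the gene on chromosome 6, was called higher with 31 and 25 counts against 0, at least 12.3-fold and 8.43-fold; Hist4h4 lies outside the rule for named genes and is given because few genes were higher. Without NSF-CiHeps replicate 1, 1 histone gene was higher in NSF-CiHeps. Mki67 fell by 4.09 ± 0.19 in C6F5UE-C6F(L)V and was not called in NSF-CiHeps, at -0.46 ± 0.16. In C6F5UE-C6F(L)V, 11 of 30 S phase genes were lower and 1 higher, and 21 of 25 G2 and mitosis genes were lower. In NSF-CiHeps 2 S phase genes were higher and 1 lower, and 1 G2 and mitosis gene was higher. Both groups had 10 of 10 macrophage and 12 of 12 fibroblast markers lower and 14 of 15 hepatocyte markers higher than MEF, and the part of these in the histone values was not tested.

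In NSF-CiHeps against pHeps, 15 of 34 histone genes were lower and 1 was higher, with 18.1% of all genes called lower and 17.4% higher. A gene could pass the filter through 1 group alone. Over all 67 genes, 48 had a lower mean in NSF-CiHeps, 10 a higher one and 9 no count in either group. Hist1h2bc fell by 1.24 ± 0.16 (SE, edgeR adjusted p = 5.9e-06), with 96.4, 142 and 104 CPM in NSF-CiHeps, against 253 and 271 CPM in pHeps. Hist1h4i fell by 1.99 ± 0.24 (edgeR adjusted p = 1.75e-06). Hist1h4m, the higher gene, whose sequence is largely shared with other genes, had 22 counts in NSF-CiHeps against 0 in pHeps. It lost its call with RLE scaling and without NSF-CiHeps replicate 1, NSF-CiHeps replicate 3 or either pHeps library. Without pHeps replicate 2 the number of lower genes was 9. In the same comparison 13 of 30 S phase genes and 17 of 25 G2 and mitosis genes were lower, and none of either list was higher by edgeR, adjusted or at an unadjusted p below 0.05. Lower calls also covered 9 of 10 macrophage and 11 of 15 hepatocyte markers, and 4 of 10 keratinocyte markers were higher. Their part in the histone values was not tested.

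In pHeps against MEF, 13 of 34 histone genes were higher and 6 lower, with 24.4% of all genes called higher and 27.2% lower. The median log2 fold change was 0.99, against -0.03 for all genes. Over all 67 genes, filtered or not, 37 had a higher mean in pHeps, 20 a lower one and 10 no count in either group. By class, 6 of 12 H4, 3 of 8 H2B, 2 of 5 H2A and 2 of 5 H3 genes were higher, and 1 in each of these classes was lower. No difference between classes was tested. Of 4 H1 genes 2 were lower and none was higher, adjusted or at an unadjusted edgeR p below 0.05: Hist1h1d fell by 1.99 ± 0.68 and Hist1h1e by 1.54 ± 0.60, and Hist1h1c, at -0.94 ± 0.23, was under the fold threshold. Hist1h2bc rose by 1.88 ± 0.16 (SE, edgeR adjusted p = 2.09e-08) and Hist1h4i by 1.66 ± 0.23 (edgeR adjusted p = 6.17e-06). Hist1h3g had 119 counts in pHeps and 18 in MEF and rose by 3.43 ± 0.84 (edgeR adjusted p = 0.00158). Hist1h4m had 0 counts in pHeps and 60 in MEF, at least 11.99-fold lower, but its counts are uncertain because its sequence is largely shared with other genes. S phase genes were higher for 19 of 30 and G2 and mitosis genes for 16 of 25. Macrophage markers were lower for 8 of 10 and fibroblast markers for 12 of 12, and their part in the histone values was not tested. Without pHeps replicate 1 the number of lower histone genes was 2.

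**Figure D5:**
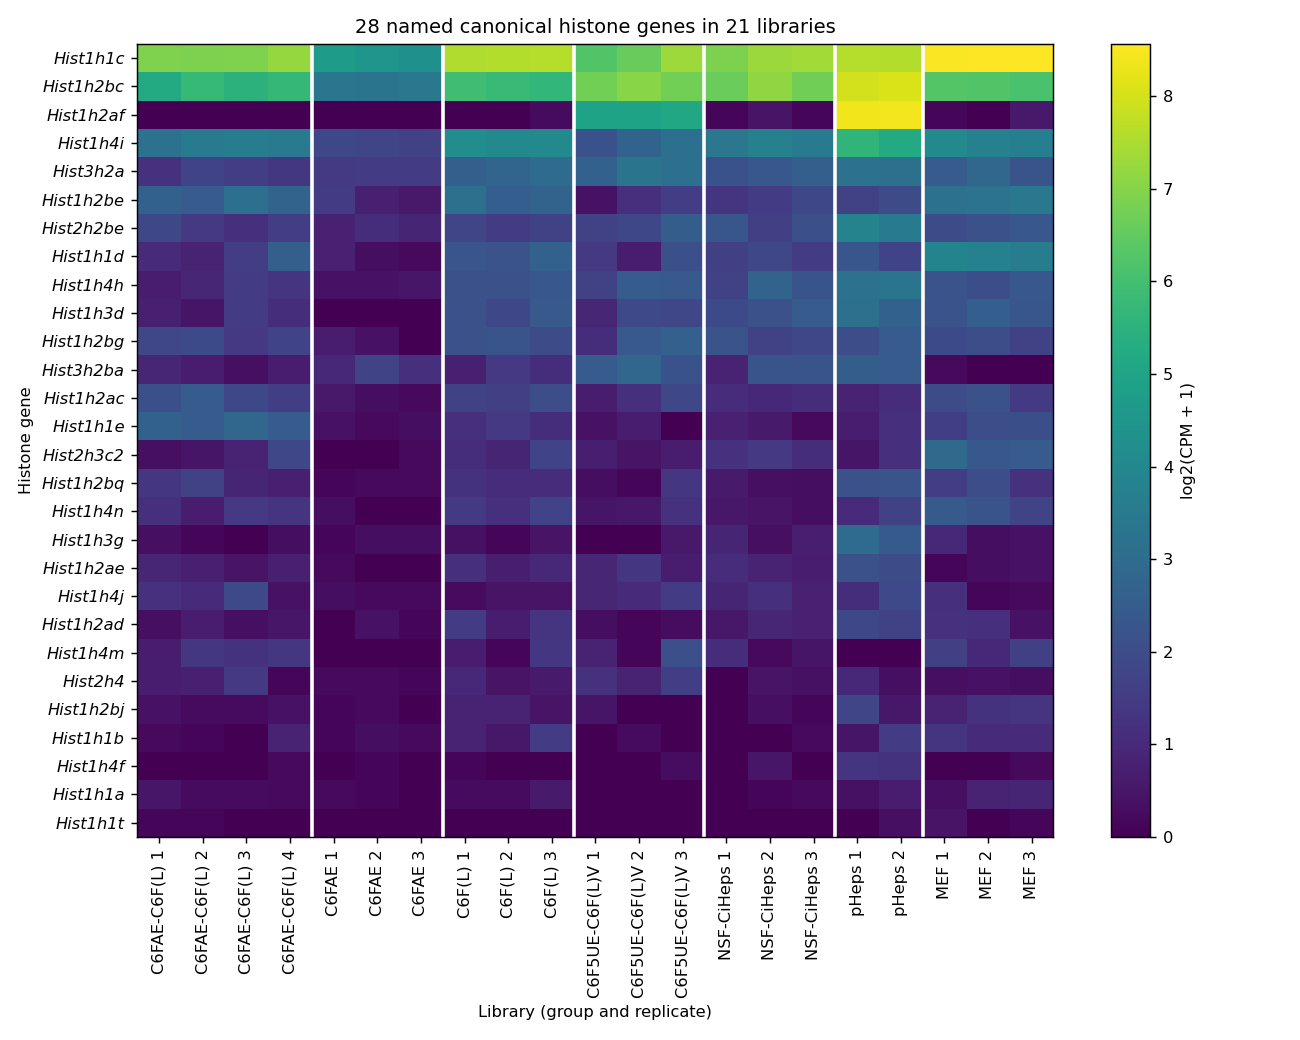
log2(CPM + 1) of the 28 named canonical histone genes (rows, highest mean first) in the 21 libraries (columns, by group). Hist1h1c and Hist1h2bc are the brightest rows across groups, Hist1h2af is bright only in C6F5UE-C6F(L)V and pHeps, and the C6FAE columns are dark in nearly every row.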

How the data were processed

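Polyadenylated RNA of 21 libraries in 7 groups was sequenced, and reads were aligned with HISAT2 to GRCm38/mm10, per the submitters' processing notes. Which program counted the reads, with what strand option and on which annotation, is not given in the sources used here. The authors deposited whole-number read counts per gene in 3 tables, with no normalization. Total counts were 9180939 to 12319883 per library. Nothing in the labels says that libraries of a group are separate cultures or animals, so p-values measure the spread between these libraries, which may be technical. Libraries were grouped by their labels. A count column headed MFE 1 was taken as MEF 1, the only library its name can stand for.

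Genes were filtered with filterByExpr (minimum count 10) and tested with edgeR 4.0.16 (limma 3.58.1, R 4.3.3) by the quasi-likelihood test with TMM scaling and Benjamini-Hochberg adjustment over all genes tested. In every comparison a gene could pass the filter through a group where it was high. Calls needed an adjusted p below 0.05 and a log2 fold change of at least 1. The fit held 13 libraries for comparisons within the MEF table, 5 for C6F5UE-C6F(L)V against pHeps and 21 for comparisons across tables. CPM were TMM-scaled over the 21 libraries. The edgeR script was tested on simulated data. Alternatives were RLE scaling, library size alone, no filter, DESeq2 1.42.0, a fit on the groups compared alone, a replicate block, each library left out and sums over fewer genes. The replicate numbers do not pair the libraries: the correlation of same-numbered libraries' deviations lay between -0.077 and 0.028. Counting intervals are exact 95% intervals and floors are 3 counts over a group, and both cover counting error only.

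The histone genes, the gene lists and the tests were chosen with earlier results of these data known. Named histone genes are the 12 with the highest mean level, the 5 largest called rises and falls in each comparison among genes at 1 CPM or more, the 3 highest and 3 lowest by correlation with the S phase list, and all H1 genes. Other genes named for their levels come from a set list. Zfp473, Hist4h4 and H2afy were named after their values were seen. Transcript, stem-loop and overlap features were read from GENCODE M21, whose coordinates match all 67 genes, and promoters from RefSeq (62 of 67 matched). Of histone-named genes, 3 not annotated as protein-coding were left out. The deposited FPKM tables were not used.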

Additional observations from a re-analysis of the deposited data

Results flagged for a closer look

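Dixon's test at the 95% level was applied to the 4 C6FAE-C6F(L) libraries for 32 levels, of which 4 stood out, and chance gives about 1 in 20. The summed H1 level was 125.1, 122.8 and 127.6 CPM in replicates 1, 2 and 3 and 156.5 CPM in replicate 4. Hist1h1c had 145.9 CPM in replicate 4 against 118, 117 and 119 CPM in the others. It makes up most of the H1 sum, so these 2 levels are not independent. The summed level of 15 histone chaperones was 1904 CPM in replicate 4, below the other libraries. Hist1h4m had 0.613 CPM in replicate 1, against 1.56, 1.40 and 1.53 CPM in the others, from 7 counts against 16, 15 and 18. Without replicate 4, the summed level of all 67 histone genes in C6FAE-C6F(L) was 213.3 CPM in place of 222.7 CPM.

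The change to C6F(L) medium after C6FAE (C6FAE-C6F(L) minus C6FAE) was compared with that of fibroblasts (C6F(L) minus MEF) by an interaction term in edgeR, a test added after seeing the data. Of 22 histone genes tested, 17 had a higher and 1 a lower difference at the same thresholds, where 16.2% of all genes had a higher and 16.8% a lower one. On the log2 scale the difference was 3.54 for Hist1h1c, 4.08 for Hist1h1d and 5.35 for Hist1h1e. It was 3.48 for Hist1h2ac, 2.75 for Hist1h2bc, 3.07 for Hist1h2be, 2.64 for Hist1h2bg, 4.01 for Hist1h2bq and 1.72 for Hist2h2be. For the H3 and H4 genes it was 5.78 for Hist2h3c2, 1.75 for Hist1h4h, 1.84 for Hist1h4i, 3.39 for Hist1h4j, 2.57 for Hist1h4k and 4.74 for Hist1h4n. The values of 6.86 for Hist1h3d and 8.07 for Hist1h4m rest on 0 counts in C6FAE and depend on the prior count of the fit. Hist3h2ba went the other way, at -5.46, with 2 counts in MEF.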

How the results depend on the processing

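Among 5501 refitted fold changes of named genes, 5287 kept their side of the threshold, 150 lost and 64 gained the call. A reversal of direction was counted only where the main fit or the refit called the gene, and there were 0. Refits in which a gene did not pass the filter are left out, so calls lost that way are not counted.

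Fitted on the compared groups alone, the number of histone genes called higher was 0 in C6F(L) against MEF, 0 in C6FAE-C6F(L) against MEF, 11 in C6FAE-C6F(L) against C6FAE, 2 in C6F5UE-C6F(L)V against MEF and 0 in NSF-CiHeps against pHeps. Fewer genes pass the filter there. Genes called lower were 4 in C6F(L) against MEF with RLE scaling or DESeq2, and 1 in C6FAE-C6F(L) against C6FAE with library size alone, DESeq2 or the compared groups alone. Without the filter 1 gene was higher in C6FAE-C6F(L) against C6F(L) and 1 in C6F5UE-C6F(L)V against pHeps. In NSF-CiHeps against pHeps, 0 were higher with RLE scaling or without C6FAE-C6F(L) replicate 4. With a replicate block, 2 were higher in C6FAE-C6F(L) against MEF and 0 in NSF-CiHeps against pHeps, and other counts with the block stayed within 1.5 times. The cause was not tested.

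Leaving out single libraries, counts called lower in C6F(L) against MEF were 0 to 1 and called higher 1 to 2. Higher calls were 1 to 2 in C6FAE-C6F(L) against MEF, 1 to 2 in C6FAE-C6F(L) against C6F(L), 1 to 3 in NSF-CiHeps against MEF and 0 to 1 in NSF-CiHeps against pHeps. Lower calls were 0 to 1 in C6FAE-C6F(L) against C6FAE, 3 to 7 in C6FAE-C6F(L) against C6F(L), 9 to 15 in NSF-CiHeps against pHeps and 2 to 5 in pHeps against MEF.

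Without Hist1h1c the summed histone level was 97.6 CPM in C6FAE-C6F(L), 22.1 CPM in C6FAE and 122.9 CPM in C6F(L). By the same sum C6F5UE-C6F(L)V had 195.6, NSF-CiHeps 164.4, pHeps 734.6 and MEF 157.1 CPM. Without genes whose protein another member shares, C6FAE-C6F(L) had 139.0, C6FAE 27.7 and C6F(L) 207.8 CPM, C6F5UE-C6F(L)V had 159.5 and NSF-CiHeps 159.9 CPM, and pHeps had 563.7 and MEF 400.6 CPM. Without genes that overlap another gene, C6F(L) had 293.6, pHeps 570.1 and MEF 508.9 CPM. By library size alone, C6F(L) had 296.1, pHeps 903.5 and MEF 511.3 CPM, and with RLE scaling pHeps had 946.2 and MEF 538.6 CPM. Without Hist1h2af pHeps had 590.9 CPM. C6FAE was lowest and pHeps highest in each of these sums. The order of the groups matched the S phase list in 9 of 21 pairs by mean log2(CPM + 1), and in 10 by the sum. Genes under 10 counts a group are limited by depth.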
